A study of Mus musculus with 6 samples.

Results

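The genes described here are 10 immediate early genes, Fos, Fosb, Jun, Junb, Jund, Egr1, Atf3, Ier2, Ier3 and Myc, taken by gene symbol out of the 22609 genes in the count tables of a mouse liver study. The study compared adult liver of wild type C57BL/6 mice (3 libraries) with adult liver of mice lacking Igfbp7, the gene for a secreted binding protein of insulin-like growth factors (3 libraries). The deletion was made with Cre and loxP sites on a C57BL/6 background. The labels name no Cre driver, no other allele and no treatment, and give neither sex, feeding state nor hour of collection. They do not say whether the libraries of a genotype came from separate animals, so the p-values measure the spread between these samples, which may be technical.

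Immediate early genes are transcribed within minutes of a stimulus, without new protein synthesis, because the factors that switch them on are already present and are activated by kinases. Their RNAs are short-lived, so the level in a tissue reflects the recent past of its cells. In liver they respond to growth factors, hormones, feeding, injury and the handling of the tissue itself. Fos and Jun proteins pair through leucine zippers to form the AP-1 factor, Egr1 is a zinc finger factor, Atf3 is a stress-induced member of the ATF and CREB family, and Myc drives growth and ribosome production. Ier2 encodes a nuclear protein of the same early wave. Ier3 encodes a membrane-anchored regulator of ERK signalling and cell survival and is not a DNA-binding factor.

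Gene counts per library ran from 16712568 to 22419411. Igfbp7 was read 1438, 1705 and 1055 times in the wild type libraries and 5, 2 and 9 times in the knockouts. Triplets of values are always listed in the order of replicates 1, 2 and 3. Levels are given as CPM, read counts scaled to a common library size of 1e6 with TMM factors, in which 1 count was worth 0.0468 to 0.0577 CPM. Wild type replicate 1 stood apart in its clock genes. A clock score, the mean log2 CPM of 6 evening genes such as Dbp minus that of 5 morning genes such as Arntl, was 0.65 there, 3.28 and 3.65 in the other wild type libraries, and 3.64, 4.53 and 4.43 in the knockouts.

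None of the 9 immediate early genes that could be tested passed the adjusted threshold between the genotypes, and 3 of them, Egr1, Myc and Fos, were among the most variable genes of the data within a genotype. Of the 10 genes, 9 passed the filter on low counts and were tested. The edgeR quasi-likelihood test called 0 of the 9 at an adjusted p under 0.05, where it called 27 of 12522 genes tested, or 0.216%. DESeq2 and limma-voom also called 0 of the 9, though DESeq2 gave no p-value for Egr1 and so could not call it. Over all genes limma-voom called 25 and DESeq2 438. Counts by DESeq2 given below for other lists stand against this larger number. At an unadjusted p under 0.05 there was 1, Jund, and 15.4% of all tested genes passed that mark. In 1 of the 9, again Jund, the 3 knockout values lay below all 3 wild type values, as they did in 10.1% of tested genes. In 0 of the 9 did they lie above, which held for 10.7% of tested genes. The fitted log2 fold change, knockout over wild type, was below 0 in 6 and above 0 in 3, with a median of -0.36 against 0.0013 over all tested genes.

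**Figure D1:**
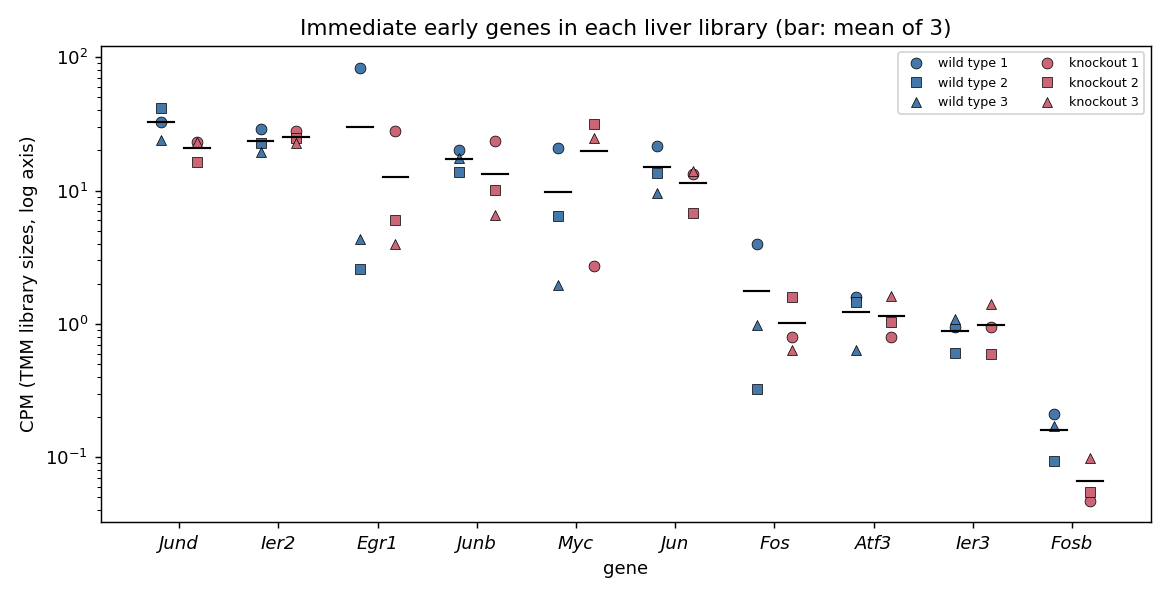
Level of each immediate early gene in each library, in CPM on a log axis, with genes ordered by their mean over 6 libraries. Blue points are wild type, red points knockout, the shape gives the replicate number and the bar is the mean of 3. Egr1 runs from 2.57 to 83.7 CPM, both in wild type libraries. Myc runs from 1.96 CPM in a wild type library to 31.9 CPM in a knockout library. Ier2 stays between 19.5 and 29.0 CPM.

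Egr1 showed the widest range. It stood at 83.7, 2.57 and 4.33 CPM in the wild type libraries, against 28.2, 6.06 and 3.98 CPM in the knockouts. Wild type replicate 1 and knockout replicate 1 were high and the other 4 libraries low. The 3 knockout values lay within the range of the wild type values, whose highest stood well above them. The highest wild type library held 32.6 times the lowest, and the highest knockout library 7.08 times the lowest. With counts of 55 to 1575 per library, counting error is small against this range. Knockout over wild type, Egr1 had a log2 fold change of -1.24 ± 1.19 (SE, edgeR adjusted p = 0.675), with a 95% interval from -3.94 to 1.47. Without wild type replicate 1 it turned to 1.90 ± 0.81 (SE, edgeR adjusted p = 0.445). DESeq2 gave Egr1 no p-value.

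Clock scores are given beside Egr1 because its highest library, wild type replicate 1, also had the lowest score, 0.65, while knockout replicate 1, next in Egr1, had 3.64. The part of the clock in the Egr1 values was not tested. With the clock score as a covariate, the log2 fold change of Egr1 was 2.87 ± 0.57 (SE, edgeR adjusted p = 0.366). With 3 libraries per genotype this fit leaves few degrees of freedom.

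Egr1 protein raises the transcription of Nab2, a corepressor that binds Egr1 and limits it. Nab2 was at 16.7, 10.4 and 13.6 CPM in the wild type libraries, against 21.5, 21.6 and 15.5 CPM in the knockouts (log2 fold change 0.53 ± 0.19 SE, edgeR adjusted p = 0.246). Within wild type, Nab2 and Egr1 put the libraries in the same order, and knockout replicate 3 was the lowest knockout library in both. Knockout replicates 1 and 2 were alike in Nab2, with 28.2 and 6.06 CPM of Egr1. The part of Egr1 in the Nab2 values was not tested. Nab1, the related corepressor, ran from 68.2 to 96.9 CPM. The close relatives of Egr1 were scarce. Egr2 stayed at or below 0.237 CPM and Egr3 at or below 0.159 CPM, and Egr4 had 0 counts in each library. About 3 counts, the upper 95% limit of counting error for a count of 0, would be 0.140 to 0.173 CPM.

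Myc also varied widely, in another pattern. It stood at 20.8, 6.41 and 1.96 CPM in the wild type libraries, against 2.70, 31.9 and 24.7 CPM in the knockouts. Knockout replicates 2 and 3 and wild type replicate 1 were high, and knockout replicate 1, the knockout library with the most Egr1, was low. From the lowest to the highest library the range was 16.2-fold. Wild type averaged 9.72 ± 9.84 CPM and knockout 19.8 ± 15.2 CPM (SD, n = 3 each), and the log2 fold change was 1.02 ± 0.87 (SE, edgeR adjusted p = 0.631), with a 95% interval from -0.96 to 2.995. Without wild type replicate 1 it was 2.20 ± 0.90 (SE, edgeR adjusted p = 0.427), without knockout replicate 1 it was 1.54 ± 0.69 (SE, edgeR adjusted p = 0.349), and without knockout replicate 2 it was 0.49 ± 0.97 (SE, edgeR adjusted p = 0.862).

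Known targets of Myc in ribosome and nucleotide synthesis moved little across the same libraries. Their summed level was 1384, 1368 and 1433 CPM in the wild type libraries, against 1383, 1396 and 1409 CPM in the knockouts. All 25 list genes were tested, 17 were above and 8 below wild type, and the median log2 fold change was 0.04. The edgeR, DESeq2 and limma-voom counts were 0, and 1 passed at an unadjusted p under 0.05. That was Ccnd2, a D-type cyclin, at a log2 fold change of -0.41 (edgeR adjusted p = 0.244). Next in p were the ribosome factor genes Dkc1, at 0.26, and Rrp9, at 0.32.

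Among the partners and rivals of Myc for its binding sites, 8 of 12 tested genes were above and 4 below wild type, at a median log2 fold change of 0.15. edgeR called 0, DESeq2 1 higher and limma-voom 0, and 3 passed at an unadjusted p under 0.05. Mlxipl, the glucose-responsive factor ChREBP, was at 0.48 ± 0.14 (SE, edgeR adjusted p = 0.175). The Myc antagonists Mxd4 and Mnt were at -0.22 and 0.51.

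**Figure D2:**
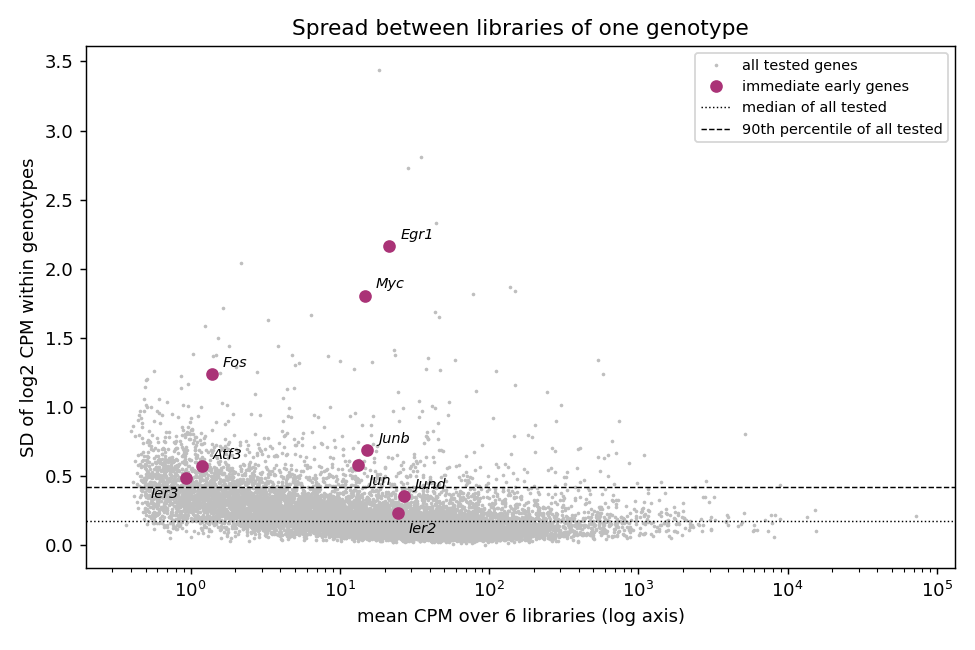
Spread between libraries of the same genotype, as the SD of log2 CPM pooled over wild type and knockout, against mean CPM on a log axis, for each of 12522 tested genes (grey) and the 9 tested immediate early genes (purple). The dotted line is the median of all tested genes, 0.176, and the dashed line their 90th percentile, 0.419. Egr1, Myc and Fos lie far above both lines, and Jund and Ier2 lie between them.

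The spread within genotypes was measured for each tested gene as the SD of log2 CPM between libraries of a genotype, pooled over both. Egr1 ranked 5 of 12522 genes, at 2.16, Myc ranked 10, at 1.805, and Fos ranked 44, at 1.24. The median over all genes was 0.176. Junb (0.685), Jun (0.580), Atf3 (0.573) and Ier3 (0.484) also lay above the 90th percentile of 0.419, which makes 7 of the 9. Jund (0.351) and Ier2 (0.231) lay between the median and that mark. Scarce genes spread more through counting error. Each gene was therefore also ranked among the tested genes within a factor of 2 of its own mean CPM. There Egr1 ranked 4 of 4218, Myc 4 of 3976, Fos 12 of 1808, Junb 34 of 4007 and Jun 56 of 3877. Jund ranked 213 of 4242, with 5.0% of such genes above it. Ier3 ranked 453 of 1575, Atf3 215 of 1738 and Ier2 710 of 4249, with 28.7%, 12.3% and 16.7% above them.

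Fos, the AP-1 subunit best known for its brief induction, was scarce in all but 1 library. It stood at 3.99, 0.327 and 0.981 CPM in the wild type libraries, from 75, 7 and 17 counts, against 0.805, 1.58 and 0.638 CPM in the knockouts, from 17, 29 and 13 counts. The wild type libraries held both the highest and the lowest value, with the knockout libraries between them. The log2 fold change was -0.81 ± 0.76 (SE, edgeR adjusted p = 0.671) and turned to 0.65 ± 0.58 (SE, edgeR adjusted p = 0.768) without wild type replicate 1.

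Fosb, a close relative that can replace Fos in AP-1, was near the limit of detection. It had 4, 2 and 3 counts in the wild type libraries, against 1, 1 and 2 counts in the knockouts, or 13 counts in all. It did not pass the filter and was not tested.

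Jun, the most versatile partner of Fos, stood at 21.6, 13.6 and 9.58 CPM in the wild type libraries, against 13.3, 6.82 and 14.0 CPM in the knockouts. The extremes were wild type replicate 1 and knockout replicate 2, and the remaining 4 libraries lay within 9.58 to 14.0 CPM. The log2 fold change was -0.39 ± 0.33 (SE, edgeR adjusted p = 0.630), and it was -0.024 without wild type replicate 1 and -0.13 without knockout replicate 2.

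Junb, a Jun relative with weaker activity on AP-1 sites, stood at 20.1, 13.8 and 17.7 CPM in the wild type libraries, against 23.4, 10.04 and 6.53 CPM in the knockouts. Knockout replicate 1 was the highest library and knockout replicates 2 and 3 the lowest. Its fold change on the log2 scale was -0.36 ± 0.40 (SE, edgeR adjusted p = 0.715). It was -1.06 ± 0.23 without knockout replicate 1 (SE, edgeR adjusted p = 0.129) and -0.034 without knockout replicate 3.

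Jund, the Jun relative that is made constitutively and is least dependent on a stimulus, was the single gene whose genotypes did not overlap. It stood at 32.6, 41.4 and 23.8 CPM in the wild type libraries, against 23.2, 16.3 and 23.2 CPM in the knockouts. The lowest wild type value and the highest knockout value were 412 and 490 counts in libraries of unequal size, and differed by less than 1 CPM. Wild type averaged 32.6 ± 8.8 CPM and knockout 20.9 ± 4.0 CPM (SD, n = 3 each). Jund had a log2 fold change of -0.64 ± 0.21 (SE), an unadjusted p of 0.0147 and an adjusted p of 0.203 by edgeR, and an adjusted p of 0.0689 by DESeq2. It ran from -0.83 without wild type replicate 3 to -0.44 without wild type replicate 2.

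Summed marker levels of several cell types were lower in the same knockout livers. All 13 Kupffer cell and macrophage markers had a log2 fold change below 0, with a median of -0.69, and their summed level was 747 to 842 CPM over the wild type and 403 to 625 CPM over the knockout libraries. By edgeR 0 of the 13 were called, though 13 had an unadjusted p under 0.05. By DESeq2 the count was 10 and by limma-voom 0. No marker of that list was at 0 in all libraries. Other marker sums were lower in the knockouts as well, with no overlap. Those of cholangiocytes, the bile duct cells, were 78.6 to 107 CPM in wild type and 49.2 to 62.6 CPM in knockout. Of 7 tested cholangiocyte markers 6 were below wild type, at a median log2 fold change of -0.23. In only 1 of the 7 did all knockout values lie below all wild type values. T and NK cell markers summed to 7.68 to 9.41 CPM and 4.03 to 5.73 CPM (5 of 5 tested below). B and plasma cell markers summed to 4.50 to 5.79 CPM and 3.22 to 3.63 CPM (4 of 5 below). Neutrophil and blood markers, with 1 tested gene each, summed to 2.95 to 5.64 against 2.18 to 2.80 CPM and to 195 to 223 against 159 to 185 CPM. Most of the blood sum was Alas2, at a mean of 193.5 CPM over all libraries. The blood markers Hba-a1, Hba-a2, Hbb-b1 and Hbb-b2 were at 0 in each library. Beta-s, a beta-globin gene outside the list and looked up afterwards, averaged 55.3 CPM, so these zeros do not mean that globin RNA was absent. The sums of hepatocyte, endothelial and stellate cell markers overlapped between the genotypes. By edgeR no marker on these other lists was called. DESeq2 called 1 cholangiocyte marker lower and 1 hepatocyte marker higher, and at an unadjusted p under 0.05 there were 1 cholangiocyte, 2 T and NK cell, 2 B and plasma cell, 1 neutrophil, 1 blood, 1 endothelial and 1 hepatocyte marker. The part of any of these cell types in the Jund values was not tested. In whole liver, fewer cells of a type and less RNA per cell cannot be told apart.

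Of these genes, 7 have an entry in the promoter table of RefSeq for assembly GRCm38.p6. In the 250 bases before the start site both strands were searched for TATAAA (in 12.4% of 32851 windows of this length), the full CRE TGACGTCA (1.55%), its core TGACG, which the full site contains (17.8%), the AP-1 site TGAGTCA (4.46%), the EGR site GCGTGGGCG (0.536%), the ETS site CCGGAA (12.0%) and the CArG box (1.47%). CRE sites are bound by CREB and ATF factors, which are activated in place by kinases. The core was found in 4 of the 7, Fos, Fosb, Junb and Atf3, and TATAAA in Fos. None of the other motifs was found in any of the 7 windows. Sites farther upstream than 250 bases, or differing by a letter from these patterns, would be missed by this search. A match is a description of the letters and not a bound site. The 120 bases before the start site are shown for these 4 genes, 5′ to 3′ on the strand of the gene, because they are the members that share a motif while their levels differed. Capitals mark TGACG, its reverse complement CGTCA or TATAAA. A second TGACG of Fos, 129 bases before the start site, lies outside the stretch shown.

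Fos, chr12:85473770-85473889, plus strand: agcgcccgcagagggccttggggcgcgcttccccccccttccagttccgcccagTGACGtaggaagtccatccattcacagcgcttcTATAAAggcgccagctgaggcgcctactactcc
Fosb, chr7:19310046-19310165, minus strand: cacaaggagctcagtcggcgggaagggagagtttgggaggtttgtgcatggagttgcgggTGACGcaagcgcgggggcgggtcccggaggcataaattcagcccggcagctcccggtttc
Junb, chr8:84978749-84978868, minus strand: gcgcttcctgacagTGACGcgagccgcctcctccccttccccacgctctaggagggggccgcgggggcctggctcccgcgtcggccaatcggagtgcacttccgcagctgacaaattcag
Atf3, chr1:191183334-191183453, minus strand: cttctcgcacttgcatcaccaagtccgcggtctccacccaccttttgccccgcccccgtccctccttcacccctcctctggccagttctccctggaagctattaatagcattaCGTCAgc

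The TGACG of Fos begins 66 bases before the start site and that of Fosb 60 bases before it, on the same strand. In Junb it begins 106 bases upstream, and in Atf3 the reverse complement begins 7 bases upstream. Fos, Fosb and Atf3 were scarce, while Junb was read at 133 to 494 counts per library. The part of the motif or its position in these levels was not tested.

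Atf3, which is induced by stress and often represses its targets, stood at 1.59, 1.45 and 0.635 CPM in the wild type libraries, against 0.805, 1.04 and 1.62 CPM in the knockouts. The genotypes covered the same range. The log2 fold change was -0.10 ± 0.40 (SE, edgeR adjusted p = 0.935), with a 95% interval from -1.004 to 0.80, and it was above 0 without wild type replicate 1 (0.12), wild type replicate 2 (0.035) or knockout replicate 1 (0.11). Genes of the ATF4 and ATF3 stress response were above wild type in 8 and below in 7 of 15 tested, at a median of 0.07. edgeR, DESeq2 and limma-voom called 0, and 0 passed at an unadjusted p under 0.05. The lowest p values were those of Cebpg (0.27), Cebpb (0.28) and Vldlr (0.77), given with their log2 fold changes.

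Ier2 was the steadiest of the genes. It stood at 29.0, 22.6 and 19.5 CPM in the wild type libraries, against 28.0, 24.9 and 22.6 CPM in the knockouts. The log2 fold change was 0.09 ± 0.16 (SE, edgeR adjusted p = 0.846), with a 95% interval from -0.27 to 0.44, or a fold of 0.831 to 1.36. It was -0.033 without wild type replicate 3. As with Egr1, replicate 1 was the highest library of each genotype, but by at most 1.49-fold.

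Ier3 stood at 0.957, 0.608 and 1.10 CPM in the wild type libraries, against 0.947, 0.600 and 1.42 CPM in the knockouts, from 11 to 29 counts per library. The values overlapped almost fully between the genotypes. Ier3 had a log2 fold change of 0.18 ± 0.38 (SE, edgeR adjusted p = 0.868), and it was below 0 without wild type replicate 2 (-0.044) or knockout replicate 3 (-0.16).

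**Figure D3:**
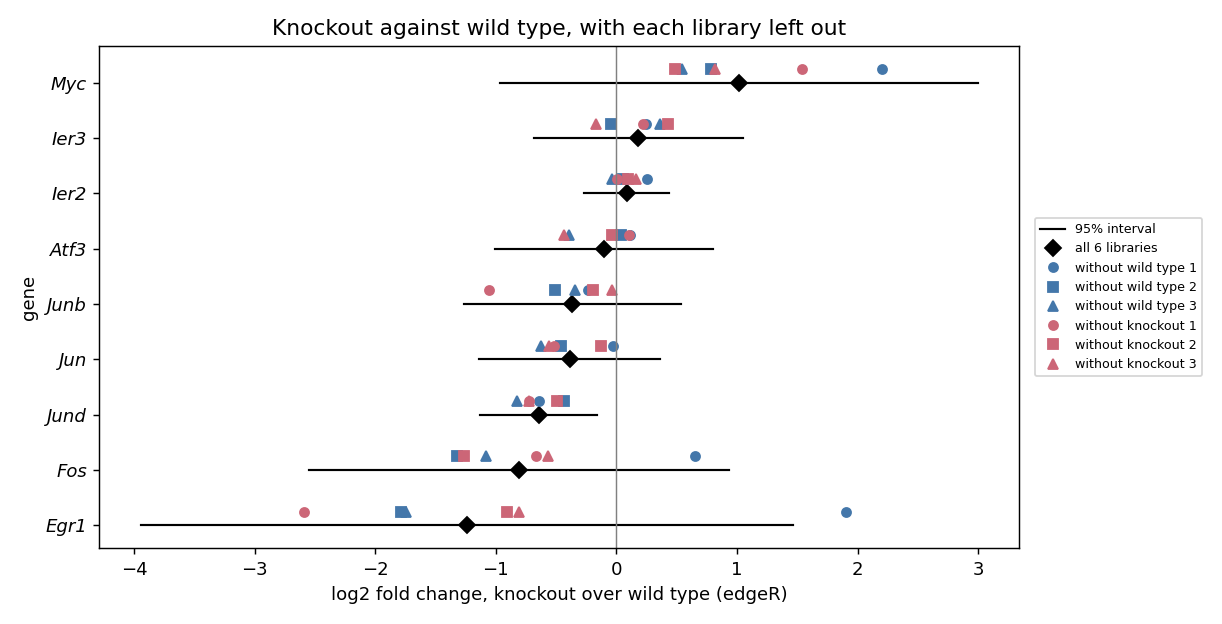
Log2 fold change of knockout over wild type for the 9 tested genes by edgeR, with all 6 libraries (black diamond, bar for the 95% interval) and with each library left out in turn (coloured points above the bar, blue for a wild type and red for a knockout library). Egr1 and Fos cross 0 when wild type replicate 1 is left out, to 1.90 and 0.65, while Jund and Myc stay on 1 side of 0 in each of the 6 fits.

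Levels of different genes were compared per kilobase of exon, with exon lengths from GENCODE M21, which may differ from the annotation the authors counted on. On this scale Ier2, at 16.1 CPM per kb on average over the 6 libraries, and Jund, at 16.0, were the most abundant. Junb (6.64), Myc (5.42), Egr1 (4.79) and Jun (4.13) followed. Ier3 (0.830), Fos (0.590) and Atf3 (0.553) were lower and Fosb (0.0181) lowest. Neighbours in this order overlapped in their ranges over libraries, with 2 breaks. The lowest value of Jun, 2.14 CPM per kb, was above the highest of Ier3, Fos and Atf3, which was 1.70 in Fos. The highest value of Fosb, 0.0341, was below the lowest of Fos, 0.139. Egr1 reached across the break below Jun, from 0.574 CPM per kb in wild type replicate 2 to 18.7 in wild type replicate 1. Myc did so too, down to 0.722 CPM per kb in wild type replicate 3.

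The other immediate early genes, from lists chosen for this comparison, showed no call by edgeR either, where 0.128% of all tested genes were called higher and 0.0878% lower. Of 20 tested transcription factors 12 were above and 8 below wild type, at a median log2 fold change of 0.24. Called by edgeR were 0, by DESeq2 3 higher and by limma-voom 0, with 4 at an unadjusted p under 0.05, all above wild type. Csrnp1, a nuclear factor induced by growth signals, was at 17.7, 15.1 and 15.6 CPM in the wild type libraries, against 21.0, 24.0 and 24.7 CPM in the knockouts (edgeR adjusted p = 0.0934). Klf10, a factor induced by TGF-beta and by the clock, was at 15.3, 16.6 and 36.7 CPM in the wild type libraries, against 60.7, 58.2 and 55.2 CPM in the knockouts (edgeR adjusted p = 0.0969). Bhlhe40, a repressor that also acts on the clock, had a log2 fold change of 0.85 ± 0.21 (SE, edgeR adjusted p = 0.126). In 4 of the 20, Csrnp1, Klf10 and Bhlhe40 among them, all knockout values lay above all wild type values, and in 1 below. Over all tested genes the shares were 10.7% and 10.1%. Npas4 had 0 counts in each library, as did Egr4.

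**Figure D4:**
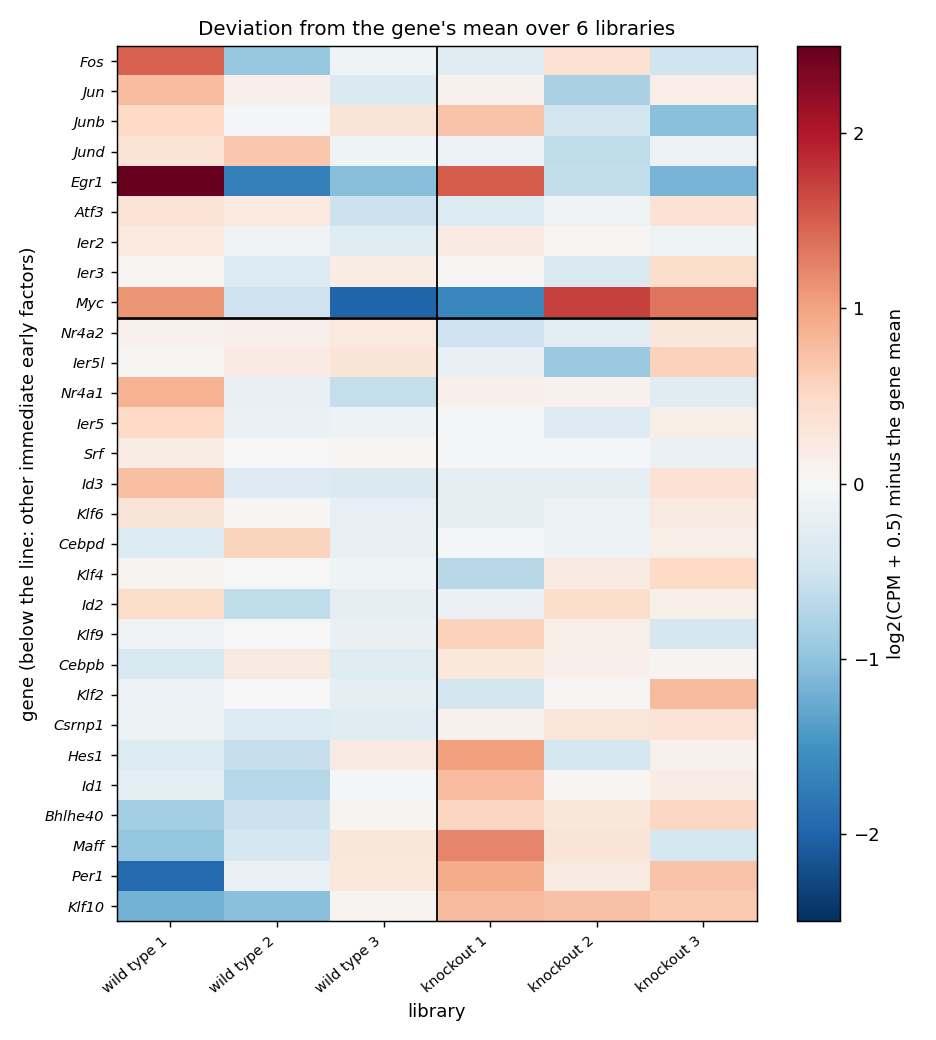
Deviation of log2(CPM + 0.5) from the mean of the gene over 6 libraries, red for above and blue for below, for the 9 tested immediate early genes (above the line) and 20 other immediate early transcription factors (below it, ordered by log2 fold change), by library. Colours end at 2.5. Egr1 is red in wild type replicate 1 and knockout replicate 1, Myc in wild type replicate 1 and knockout replicates 2 and 3, and Klf10 in the 3 knockout libraries.

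These factors too were variable within a genotype, 11 of the 20 lying above the 90th percentile of spread, against 9 of 31 immediate early genes that are not transcription factors. Of those 31 genes 21 were above and 10 below wild type, at a median of 0.04. edgeR called 0, DESeq2 2 higher and limma-voom 0, with 4 at an unadjusted p under 0.05. Dusp1, a phosphatase that switches off MAP kinases, had a log2 fold change of 0.86 ± 0.24 (SE, edgeR adjusted p = 0.152). The kinase gene Sik1 was at 0.72 and Ctgf, a matrix-associated growth regulator, at 0.60, neither past the threshold.

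The bZIP proteins that pair with Fos and Jun or compete with them gave 8 above and 6 below wild type of 14 tested, at a median of 0.08. Here edgeR called 0, DESeq2 1 higher and limma-voom 0, with 5 at an unadjusted p under 0.05. The small Maf gene Mafg had a log2 fold change of 0.49 ± 0.12 (SE, edgeR adjusted p = 0.122) and the cAMP-responsive modulator Crem one of -0.52 ± 0.18 (SE, edgeR adjusted p = 0.231). The MAP kinases and SRF factors that act upstream gave 10 above and 15 below wild type of 25 tested, at a median of -0.03. The count was 0 by edgeR, DESeq2 and limma-voom, and 4 passed at an unadjusted p under 0.05. Mapk14, the p38 alpha kinase, was at 0.28, its activator Map2k6 at 0.81 and the ribosomal S6 kinase gene Rps6ka1 at -0.36, none past the threshold. Corepressors and modifiers gave 4 above and 7 below wild type of 11 tested, at a median of -0.08, with 0 called by edgeR, 1 lower by DESeq2, 0 by limma-voom and 2 at an unadjusted p under 0.05. Cited2, a cofactor competitor at CBP and p300, was at -0.72 ± 0.18 (SE, edgeR adjusted p = 0.134), and Hdac3, a histone deacetylase, at 0.19.

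Of 16 genes known as AP-1 targets, 9 passed the filter, 3 above and 6 below wild type, at a median of -0.31. A gene scarce in 1 genotype passes only through the other, so this split describes the 9 and not the 16. By edgeR 1 was called higher and 0 lower, by DESeq2 1 higher and 2 lower, and by limma-voom 1 gene, also higher. Before adjustment, 1 above and 4 below wild type had a p under 0.05, a mark that 15.4% of all tested genes passed. In 5 all knockout values lay below all wild type values, and in 1 above. Over all tested genes the shares were 10.1% and 10.7%. One rose by edgeR, Vegfa, the vascular growth factor gene that many other signals also induce, from 132 ± 10 to 234 ± 25 CPM (SD, n = 3 each), at a log2 fold change of 0.83 ± 0.11 (SE, edgeR adjusted p = 0.0356). With 1 library left out its adjusted p by edgeR ran from 0.0438, without wild type replicate 3, to 0.171, without wild type replicate 2, and passed the threshold in the first of these fits alone. With the clock score as a covariate it was 0.366, and with the replicate block 0.0554. Spp1, the osteopontin gene, was at -0.82 ± 0.13 (SE, edgeR adjusted p = 0.0596) and Cd44, its receptor gene, at -0.74 ± 0.17 (SE, edgeR adjusted p = 0.105). Spp1 is also on the cholangiocyte marker list and is part of its sum. The part of the cell types with lower marker sums given above in the Spp1 and Cd44 values was not tested.

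For each tested gene the 3 genes with the most similar pattern over the 6 libraries were sought among 10831 genes of at least 1 CPM, by Pearson's r of log2 CPM. With 6 libraries and so many genes, values of r this high are a description of likeness and no test. Closest to Egr1 were Nsdhl (r = 0.99), Slc44a3 (0.98) and Dhcr7 (0.98). Nsdhl and Dhcr7 encode enzymes of cholesterol synthesis. Nsdhl stood at 196, 126 and 134 CPM in the wild type libraries, against 177, 146 and 127 CPM in the knockouts, the same order of libraries as Egr1, over a far narrower range. Closest to Ier2 were Acot2 (0.995), Zfp36l1 (0.99) and Tm7sf2 (0.98), of which Zfp36l1 encodes an RNA-decay factor of the immediate early class and Tm7sf2 a sterol reductase.

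Closest to Myc were Adm, the adrenomedullin gene (0.99), Pnldc1 (0.98) and Fn3krp (0.98). Adm stood at 1.86, 1.12 and 0.808 CPM in the wild type libraries, against 0.994, 2.07 and 1.96 CPM in the knockouts. Closest to Fos were Enc1, Rilpl2 and Mrps27 (0.97 to 0.98), to Jun Nubp1, Sat1 and Pter (0.98 to 0.99), to Junb Snrpd2, Rbpms and Bre (0.989 to 0.996), and to Jund Tgfb1, Ythdf2 and Nos3 (0.98 to 0.99). Closest to Atf3 were Foxa2, Ntn3 and Susd2 (0.98 to 0.99), and to Ier3 Zfp7, Pigp and Spc25 (0.96 to 0.98). Among these, Foxa2, a pioneer factor of hepatocytes, moved over a wide range, from 19.3 CPM in wild type replicate 3 to 50.4 CPM in wild type replicate 1, as Atf3 did.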

How the data were processed

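The deposited values are whole-number read counts per gene symbol, 1 table per library, without normalization. Tools listed in the submitters' processing notes are TopHat2 2.0.8b, HTSeq and CASAVA 1.8.2, with the builds mm9 and hg19 and no role for either. Annotation and strand setting, not given in the sources used here, remain unknown. The 5 rows per table that name no gene (reads outside genes, 9.65% to 12.5% of uniquely placed reads, among them) were left out.

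Counts were tested with edgeR 4.0.16 (R 4.3.3) after filterByExpr (minimum count 10), TMM scaling and a quasi-likelihood fit on genotype, 2-sided, adjusted by Benjamini-Hochberg over 12522 genes. Intervals are 95%. Spread and likeness used log2 CPM with a prior count of 2. DESeq2 1.42.0 and limma-voom (limma 3.58.1) were alternatives. The test was checked on simulated counts. Named genes are all members, list genes past the threshold or the 3 of lowest p, and the 3 most alike per member. One gene that this rule names is not reported here. Members, lists and the clock score were chosen with earlier results of these data known. RefSeq lists no gene overlapping a member.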

Additional observations from a re-analysis of the deposited data

How the results depend on the processing

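The count of immediate early genes called was 0 in each alternative run, including a threshold of 0.1 for the adjusted p. The count over all genes, 27, was 133 with no filter on low counts, 438 by DESeq2, 68 with robust estimation, 205 at a threshold of 0.1 and 1 at a threshold of 0.01. Adding the clock score to the model left 1. It was 1 with wild type replicate 1 and knockout replicate 2 both left out, and 3 to 36 with 1 library left out. The cause was not tested, apart from fewer samples in the fits with libraries left out. No label says that the replicate numbers pair the samples. Deviations of same-numbered libraries correlated at -0.083, -0.098 and -0.041, and those of differently numbered libraries at -0.051 to 0.125. With 3 libraries per genotype these values cannot exclude a shared batch. With the replicate block 1 gene was called in all and 0 of the immediate early genes.

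Of the refitted fold changes of the 9 genes, 144 kept their sign and 17 had the opposite one, none past the threshold in either fit. With wild type replicate 1 and knockout replicate 2 both left out, Fos was at 0.19, Jun at 0.24, Egr1 at 2.24 and Atf3 at 0.18. With the clock score, Fos was at 1.02, Jun at 0.26, Junb at 0.016, Egr1 at 2.87 and Atf3 at 0.21. With 1 library left out, Fos ran from -1.32 to 0.65, Egr1 from -2.59 to 1.90, Atf3 from -0.43 to 0.12, Ier2 from -0.033 to 0.26 and Ier3 from -0.16 to 0.43. Jund and Myc kept their sign throughout. Depth limits Fosb, Ier3, Atf3 and Fos, at 13 to 158 counts over 6 libraries. The limit given for a count of 0 covers counting error only, while the intervals of fold changes include the spread between libraries.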

Other observations

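Gadd45g, a growth arrest gene on the list of immediate early genes that are not transcription factors, varied more within a genotype than any of the 9 tested genes above, ranking 4 of 12522 in spread. It stood at 43.5, 9.63 and 4.73 CPM in the wild type libraries, against 3.17, 139.5 and 66.0 CPM in the knockouts, which puts the libraries in the order in which Myc does, except that the lowest 2 change places. Cish, an inhibitor of cytokine receptor signalling chosen after its values were seen, ranked 14, at 76.7, 59.8 and 4.68 CPM in the wild type libraries, against 26.8, 36.4 and 72.2 CPM in the knockouts. Ahead of Egr1 in spread, and chosen likewise, were also Moxd1, Mup9 and Mup5. The last 2, genes of the major urinary protein family, were high in knockout replicate 2 alone, at 196 and 164 CPM. Their family has near-identical copies, and reads that aligned at several places were set apart and counted for no gene.

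Heat shock genes, which respond to handling of tissue as immediate early genes do, were above wild type in 4 and below in 8 of 12 tested, at a median log2 fold change of -0.07. edgeR called 0, DESeq2 1 lower and limma-voom 0, with 1 at an unadjusted p under 0.05. Hspb1, a small heat shock protein gene, was at 2.66, 2.34 and 2.89 CPM in the wild type libraries, against 1.14, 0.273 and 1.08 CPM in the knockouts (edgeR adjusted p = 0.120). Hspa1b, the inducible HSP70 gene, was at 5.26, 5.56 and 7.04 CPM in the wild type libraries, against 2.51, 2.13 and 5.74 CPM in the knockouts, and Dnaja1, a co-chaperone gene, had a log2 fold change of 0.28. The summed level of the heat shock list was 1280, 1249 and 1151 CPM in the wild type libraries, against 1257, 1087 and 1208 CPM in the knockouts. The sum was highest in wild type replicate 1, as were Egr1, Fos and Jun, with knockout replicate 1 close behind. Hspb1 and Hspa1b were instead highest in wild type replicate 3. The part of tissue handling was not tested.

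Glucocorticoid and fasting genes were above wild type in 11 and below in 5 of 16 tested, at a median of 0.32, with 0 called by edgeR, 2 higher and 1 lower by DESeq2, 0 by limma-voom and 4 at an unadjusted p under 0.05. Fkbp5, a cochaperone of the glucocorticoid receptor and one of its strongest targets, stood at 26.5, 46.0 and 77.7 CPM in the wild type libraries, against 179, 186 and 255 CPM in the knockouts (edgeR adjusted p = 0.0596). Mt1, a metallothionein gene, was at 4.25, 4.12 and 4.79 CPM in the wild type libraries, against 9.47, 51.8 and 22.9 CPM in the knockouts (edgeR adjusted p = 0.0825). G6pc, the glucose-6-phosphatase gene, had a log2 fold change of -0.48. Of 17 clock genes 14 were above and 3 below wild type, at a median of 0.48, with 0 called by edgeR, 2 lower by DESeq2, 0 by limma-voom and 11 at an unadjusted p under 0.05. Lowest in p were Gm129, at a log2 fold change of 2.35, Clock at -0.61 and Per3 at 1.94. Both lists hold Per1, which also counts as an immediate early gene.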
